A study of Mus musculus with 6 samples.

Results

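PU.1 (gene Spi1), Spi-B (Spib), IRF4 (Irf4), IRF8 (Irf8), Ets1, Elf1, Fli1, Mef2c and Mef2d are transcription factors of the ETS, IRF and MEF2 families. They were taken as 1 group because ETS and IRF factors bind the enhancers of the immunoglobulin light chain genes and MEF2 proteins act beside them. The group was defined by gene symbol, and all 9 symbols were found among the 49997 rows of the count table. RNA came from small pre-B cells, sorted by flow cytometry from the bone marrow of C57BL/6 mice aged 6 to 12 weeks. At this stage a B-cell precursor has largely stopped dividing and rearranges its light chain genes. Wild-type mice (WT) and mice of the ΔrsCBE genotype gave 3 libraries each, 6 in all. The prefix Δ marks a deletion whose extent the labels leave out, and no other allele or treatment is named for either genotype. Values of single libraries are listed throughout in the order of replicates 1, 2 and 3. The labels do not say whether each library came from a separate mouse, so p-values measure only the spread between these libraries, which may be technical.

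PU.1 and Spi-B are closely related ETS proteins that recognise DNA with a GGAA core. On composite sites they recruit IRF4 or IRF8, which bind DNA weakly alone, and such a site lies in the 3′ kappa enhancer. IRF4 and IRF8 are required in overlapping roles for the passage from large to small pre-B cells and for light chain rearrangement, and the MEF2 proteins are MADS-box factors that respond to calcium and MAP kinase signals in B cells.

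Because related family members could exchange reads, their coding sequences were compared first. For each of the 36 pairs of members, the longest run of identical bases between the longest complete coding sequences in GENCODE M21 (build GRCm38) had between 9 and 28 bases. The stretches below are shown for the pairs of members that act as close relatives: PU.1 and Spi-B, IRF4 and IRF8, and the MEF2 proteins. Each holds that shared run in capitals with 45 flanking bases on either side, and positions count from the first base of the start codon.
Spi1, positions 607 to 714: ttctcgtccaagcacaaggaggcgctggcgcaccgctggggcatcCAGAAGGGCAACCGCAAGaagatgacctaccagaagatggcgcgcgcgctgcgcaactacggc
Spib, positions 613 to 720: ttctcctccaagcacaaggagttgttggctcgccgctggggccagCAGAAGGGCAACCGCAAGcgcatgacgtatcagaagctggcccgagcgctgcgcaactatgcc
Irf4, positions 250 to 357: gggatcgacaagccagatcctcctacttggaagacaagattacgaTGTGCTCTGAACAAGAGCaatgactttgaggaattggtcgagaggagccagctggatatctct
Irf8, positions 205 to 312: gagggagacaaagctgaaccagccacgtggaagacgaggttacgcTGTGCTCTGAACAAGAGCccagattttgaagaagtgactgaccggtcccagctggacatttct
Mef2c, positions 152 to 269: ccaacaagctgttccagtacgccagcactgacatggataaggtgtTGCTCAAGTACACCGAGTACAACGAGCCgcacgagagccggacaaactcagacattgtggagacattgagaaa
Mef2d, positions 152 to 269: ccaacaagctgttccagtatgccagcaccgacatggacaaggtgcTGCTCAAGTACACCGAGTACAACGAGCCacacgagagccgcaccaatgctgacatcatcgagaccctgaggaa

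The Spi1 and Spib stretches, which encode part of the DNA-binding ETS domain, shared a run of 18 bases and matched at 89 of 108 positions (82.4%). The Irf4 and Irf8 stretches, from the IRF DNA-binding domain, also shared 18 bases and matched at 78 of 108 positions (72.2%). Mef2c and Mef2d were the most alike, with a run of 28 bases and 102 of 118 positions matching (86.4%). Ets1 and Fli1, which lie near each other on chromosome 9, shared a longer run than the PU.1 and IRF pairs, 21 bases, but matched at 65 of 111 positions (58.6%) around it, and their stretch is not shown. No pair of members was therefore a near-identical copy over these coding sequences. Read length is not given in the sources used here, so the share of reads that could map to either relative was not computed.

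Total counts ranged from 428106 to 1300805 per library, so 3 counts, taken as the smallest detectable amount, corresponded to 2.38 to 7.36 CPM, the count scaled to a common library size. The labelled cell type was checked against its markers: all 13 pre-B markers, which include Pax5, Rag1 and Il2ra, were tested genes, and their summed level was 13284 to 15514 CPM in WT and 14253 to 14884 CPM in ΔrsCBE libraries. Pro-B and large pre-B markers were low: 8 genes summed to 24.3 to 44.1 CPM in WT and 21.8 to 41.7 CPM in ΔrsCBE. These 8 include no gene of the cell-cycle list given below, so they do not show how many cells were dividing. ΔrsCBE replicates 2 and 3 had 1603 and 1430 counts of Xist and 0 counts of 4 Y-linked genes, a female pattern. The other 4 libraries, all WT libraries among them, had a male pattern, with at most 1 Xist count. Sex and genotype can therefore be separated only through ΔrsCBE replicate 1. A list of 20 cell-cycle genes summed to 6438 to 7136 CPM in WT and 2681 to 4377 CPM in ΔrsCBE. All 18 tested genes of the list had a log2 fold change below 0. Of these, 13 were lower at an adjusted p-value under 0.05 by edgeR (1.49% of all tested genes were). A list of 18 early-response genes summed to 3600 to 4119 CPM in WT and 4816 to 6887 CPM in ΔrsCBE. All 13 tested genes of that list had a log2 fold change above 0, and 4 were higher at the same threshold (0.205% of all tested genes were). The share of counts from mitochondrial genes was 9.07%, 11.3% and 10.8% in the WT libraries and 8.87%, 8.90% and 8.83% in the ΔrsCBE libraries, so these groups did not overlap either. The part of sex, the cell cycle, early-response genes and the mitochondrial share in the results that follow was not tested.

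All 9 members were detected in every library and passed the count filter. Levels of different genes were compared per length, as CPM per kb of annotated exon. In WT the order was Spib (332 ± 25.6, SD, n = 3), Irf4 (224 ± 11.4), Elf1 (119 ± 10.1), Ets1 (89.9 ± 1.92), Mef2d (78.0 ± 6.76), Fli1 (52.8 ± 2.55), Irf8 (24.9 ± 2.59), Spi1 (17.9 ± 2.85) and Mef2c (8.07 ± 0.643). No 2 neighbours in this WT order overlapped between libraries. In ΔrsCBE the level of Spi1 was 29.6 ± 1.21 CPM per kb and that of Irf8 25.2 ± 6.54, with overlapping ranges. Mef2d (95.01 ± 14.2) and Ets1 (88.3 ± 3.74) also overlapped there, and the other neighbours did not. Spib and Irf4 were thus the most abundant members in both genotypes. The place of Irf8 depended on the length used: per kb of the longest coding transcript, chosen as an alternative after seeing the data, Irf8 had 61.7 ± 6.42 in WT, overlapped Fli1 (55.5 ± 2.68) and lay above Spi1 (23.7 ± 3.77). On that length Spi1 overlapped Mef2c (20.2 ± 1.61) in WT.

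The comparison between genotypes asked whether these factors, which act on the light chain enhancers, differ in RNA level when the rsCBE deletion is present. Spi1 rose 1.72-fold in ΔrsCBE by the fitted model, and the other 8 members did not pass the test. Of 7792 genes tested with edgeR's quasi-likelihood test, 132 (1.69%) had a Benjamini-Hochberg adjusted p-value under 0.05, of which 16 (0.205%) were higher and 116 (1.49%) lower in ΔrsCBE. These counts moved with single libraries: 7 higher and 52 lower without WT replicate 3, 6 and 53 without ΔrsCBE replicate 3, 44 and 113 without ΔrsCBE replicate 1, and 34 and 153 without ΔrsCBE replicate 2. Among the members, 1 of 9 rose and 0 fell. At an unadjusted p-value under 0.05, 2 of 9 members were higher, against 4.22% of all tested genes that were higher and 10.2% in either direction. The log2 fold change was above 0 for 8 of 9 members and for 51.8% of all tested genes. The median was 0.10 over the members and 0.01 over all tested genes. The values of the groups did not overlap for 1 member, Spi1, and for 16.1% of all tested genes, 7.23% in the higher direction.

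**Figure D1:**
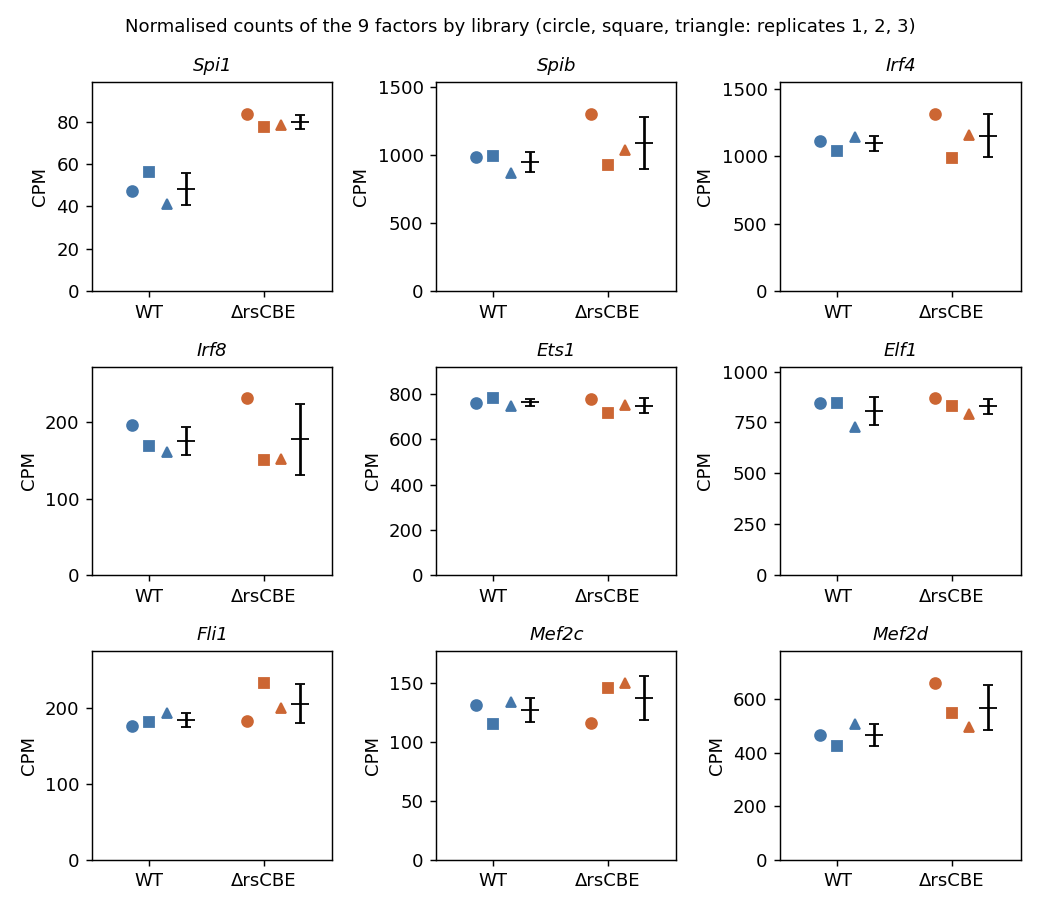
Level of each factor in CPM (vertical axis, from 0) in the 3 WT (blue) and 3 ΔrsCBE (orange) libraries, with replicates 1, 2 and 3 as circle, square and triangle and the mean ± SD in black. The Spi1 libraries separate (41.2 to 56.4 against 77.5 to 83.5 CPM), and the ranges of the genotypes overlap for the other 8 genes.

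Spi1 encodes PU.1, which sets myeloid against lymphoid fate by its dose and is kept at a low level in B cells. Spi1 (ENSMUSG00000002111.8) lies on chromosome 2, 91082390 to 91115756, plus strand, and no other annotated gene overlaps it. It had 29, 23 and 52 counts in the WT libraries and 69, 75 and 62 counts in the ΔrsCBE libraries. Scaled, these were 47.0, 56.4 and 41.2 CPM in WT and 83.5, 77.5 and 78.3 CPM in ΔrsCBE. All 3 ΔrsCBE libraries were higher than all 3 WT libraries, and they lay closer to each other (79.8 ± 3.26 CPM, SD, n = 3) than the WT libraries did (48.2 ± 7.68 CPM). Counting alone gave wide limits: the exact Poisson interval at the 95% level ran from 35.8 to 84.6 CPM in WT replicate 2 and from 60.0 to 100.4 CPM in ΔrsCBE replicate 3. The log2 fold change was 0.78 ± 0.20 (SE), with 95% limits of 0.36 and 1.20 (adjusted p-value 0.0480, edgeR). In a bulk sample, more cells of a type that carries the RNA and more RNA per cell cannot be told apart.

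The Spi1 estimate kept its direction in all 16 alternatives of processing, between 0.64 and 0.88 on the log2 scale. Since its groups did not overlap, leaving out libraries could not have turned the direction. The estimate passed the threshold in 6 of the 16 alternatives. Of these 6, 1 was the reported fit itself at a threshold of 0.1, which had to pass. The fit without robust estimation also has the estimate of the reported fit. The call ended with the DESeq2 Wald test (log2 fold change 0.77, adjusted p-value 0.257) and without WT replicate 3 (0.64, adjusted p-value 0.388 by edgeR), WT replicate 1 (0.79, 0.129) or any 1 of the ΔrsCBE libraries (0.75 to 0.81, with edgeR adjusted p-values from 0.0535 to 0.164). Among the male-pattern libraries alone, ΔrsCBE replicate 1 stands against the 3 WT libraries and is assumed to vary like them. There the log2 fold change was 0.85, a value that rests on 1 ΔrsCBE library. Without ΔrsCBE replicate 1, where both ΔrsCBE libraries have the female pattern, it was 0.75 (adjusted p-value 0.0846, edgeR).

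**Figure D2:**
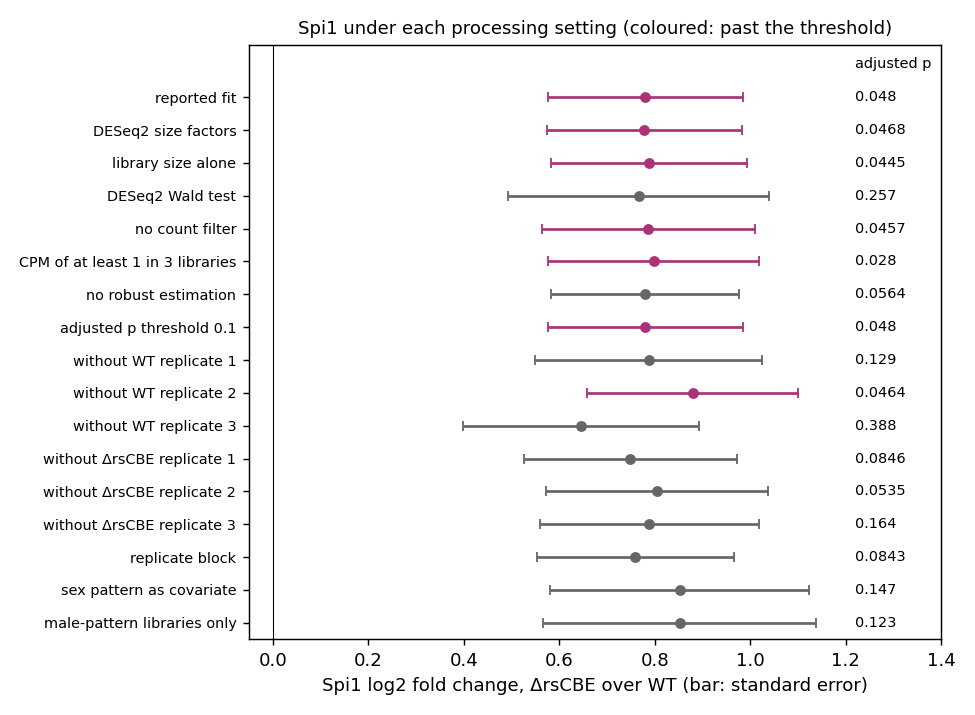
Spi1 log2 fold change of ΔrsCBE over WT (horizontal axis) with its standard error (bars) in the reported fit and in 16 alternatives (rows), coloured where it passed that setting's adjusted p-value threshold. The estimates lie between 0.64 and 0.88, and the adjusted p-values, printed at the right, lie between 0.0280 and 0.388 over the alternatives.

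Since myeloid cells carry much more Spi1 than pre-B cells, their markers are given beside it. The 18 myeloid markers summed to 57.8 to 88.3 CPM in WT and 65.4 to 74.5 CPM in ΔrsCBE, and most of that was Itgam, which did not pass the test (log2 fold change -0.11, adjusted p-value 0.927 by edgeR). The other 17 summed to 2 to 8 counts in WT libraries (4.90 to 8.11 CPM) and 8 to 15 counts in ΔrsCBE libraries (8.27 to 18.2 CPM). Of these 17, 5 had a count in a WT library and 11 in a ΔrsCBE library. Elane, Prtn3, S100a8, Ly6g, Cebpa and Cebpe were at 0 in all 6 libraries. Lyz2, an abundant myeloid transcript, had 0 counts in the WT libraries and 2, 4 and 2 counts in the ΔrsCBE libraries, and S100a9 had 0 and then 2, 1 and 3 counts. Tyrobp and Csf1r went the other way, with 6 counts each over the WT libraries and 3 and 4 over the ΔrsCBE libraries. The remaining detected markers of these 17 had more counts in ΔrsCBE. The part of these few counts in the Spi1 difference was not tested. Markers of plasmacytoid dendritic cells, which express Spib and Irf8, summed to at most 6 counts in a library, and Siglech and Ccr9 were at 0. T and NK cell markers summed to at most 9 counts in a library and erythroid markers to at most 6, with Cd3e, Cd3g and Klf1 at 0. Plasma cell markers summed to 152 to 214 CPM in WT and 159 to 192 CPM in ΔrsCBE, and mature B-cell markers to 615 to 947 and 622 to 781 CPM.

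Spib encodes Spi-B, the lymphoid relative of PU.1 that is expressed in B cells and plasmacytoid dendritic cells. The gene (ENSMUSG00000008193.13) lies on chromosome 7, 44525993 to 44532071, minus strand. Its level was 988, 998 and 866 CPM in the WT libraries and 1302, 930.1 and 1042 CPM in the ΔrsCBE libraries. ΔrsCBE replicate 1 was the highest library, while replicate 2 lay within the WT range. The log2 fold change was 0.20 ± 0.11 (SE), with 95% limits of -0.03 and 0.43, which did not pass the test (adjusted p-value 0.585, edgeR). Set against the WT libraries alone, the male ΔrsCBE replicate 1 gave 0.46, a value that rests on 1 ΔrsCBE library. Without that library, where sex pattern and genotype coincide, the value was 0.06 (adjusted p-value 0.899, edgeR).

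Spi1 made up a small part of the summed counts of these 2 genes. Its share was 4.55%, 5.35% and 4.54% in the WT libraries and 6.03%, 7.69% and 6.99% in the ΔrsCBE libraries. The means were 4.81% ± 0.466 and 6.90% ± 0.836 (SD, n = 3), and all ΔrsCBE libraries were above all WT libraries. The 95% Wilson intervals, which cover counting error only, overlapped: 3.59% to 7.90% in WT replicate 2 and 4.79% to 7.56% in ΔrsCBE replicate 1. The share rests on the same Spi1 counts as the fold change and is no separate evidence.

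IRF4 and IRF8 are the partners that PU.1 and Spi-B recruit. Irf4 (ENSMUSG00000021356.10; chromosome 13, 30749226 to 30766976, plus strand) had 1111, 1035 and 1143 CPM in the WT libraries and 1311, 987 and 1159 CPM in the ΔrsCBE libraries. The ΔrsCBE libraries held both the highest and the lowest value. The log2 fold change was 0.07 ± 0.10 (SE), with 95% limits of -0.15 and 0.28 (adjusted p-value 0.896, edgeR). Irf8 (ENSMUSG00000041515.10; chromosome 8, 120736358 to 120756694, plus strand) had 196, 169 and 162 CPM in WT and 231, 151 and 152 CPM in the ΔrsCBE libraries. ΔrsCBE replicate 1 was above all WT libraries, and ΔrsCBE replicates 2 and 3 were below them. Its log2 fold change was 0.02 ± 0.16 (SE), with 95% limits of -0.31 and 0.36 (adjusted p-value 0.983, edgeR). Irf8 counts were 15.01%, 14.1% and 12.4% of the summed Irf4 and Irf8 counts in WT and 14.99%, 13.3% and 11.6% in ΔrsCBE, with overlapping ranges. Without ΔrsCBE replicate 1, where sex pattern and genotype coincide, the log2 fold change was -0.04 for Irf4 and -0.21 for Irf8. Neither passed the test (edgeR adjusted p-values 0.941 and 0.635). With the male-pattern libraries alone, where ΔrsCBE has 1 library, the log2 fold change was 0.26 and 0.41.

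Ets1, Elf1 and Fli1 are ETS factors of other subfamilies that are widely expressed in lymphocytes. Ets1 (ENSMUSG00000032035.15; chromosome 9, 32636221 to 32757820, plus strand) had 759, 780 and 748 CPM in WT and 778, 715 and 751 CPM in ΔrsCBE. Its coefficient of variation was 2.14% in WT, the smallest of the members there, and 4.23% in ΔrsCBE, where that of Spi1 was 4.09%. The 95% Poisson limits of Ets1 in WT replicate 3 alone were 701 and 797 CPM, wider than the range of the WT libraries. These coefficients therefore do not rank the genes by variability. The log2 fold change of Ets1 was -0.03 ± 0.10 (SE), with 95% limits of -0.23 and 0.18 (adjusted p-value 0.974, edgeR). Elf1 (ENSMUSG00000036461.16; chromosome 14, 79481194 to 79582494, plus strand) had 845, 844 and 726 CPM in WT and 868, 829 and 793 CPM in ΔrsCBE. Its log2 fold change was 0.05, with 95% limits of -0.16 and 0.26. Exons of Elf1 share 327 bases with exons of Wbp4 on the opposite strand, which had 189 counts over all libraries beside 3929 for Elf1. Fli1 (ENSMUSG00000016087.13; chromosome 9, 32422204 to 32542861, minus strand) was measured at 177, 181 and 194 CPM in WT and 183, 234 and 201 CPM in ΔrsCBE. Its log2 fold change was 0.16, with 95% limits of -0.13 and 0.44. The other annotated genes that overlap Ets1, Fli1 or Irf8 share 0 exon bases with them. The ranges of the genotypes overlapped for Ets1, Elf1 and Fli1. Elf1 and Fli1 did not pass the test either (edgeR adjusted p-values 0.933 and 0.785).

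Of the MEF2 members, Mef2d (ENSMUSG00000001419.17; chromosome 3, 88142372 to 88172086, plus strand) had 466, 427 and 508 CPM in WT and 662, 549 and 495 CPM in the ΔrsCBE libraries. Its groups overlapped through 1 library in each, WT replicate 3 and ΔrsCBE replicate 3. The log2 fold change was 0.28 ± 0.12 (SE), with 95% limits of 0.03 and 0.52 (edgeR adjusted p-value 0.388, unadjusted 0.0283). With the male-pattern libraries alone, where ΔrsCBE has 1 library, it was 0.49. Without ΔrsCBE replicate 1, where sex pattern and genotype coincide, it was 0.15 (adjusted p-value 0.643, edgeR). Mef2c (ENSMUSG00000005583.16; chromosome 13, 83504034 to 83667080, plus strand), which supports B-cell survival and proliferation after receptor signals, had 131, 115 and 134 CPM in WT and 116, 146 and 150.3 CPM in ΔrsCBE. Its log2 fold change was 0.10 ± 0.16 (SE), with 95% limits of -0.22 and 0.42 (adjusted p-value 0.905, edgeR). In ΔrsCBE the order of the libraries was opposite for the 2 genes: replicate 1 was the highest for Mef2d and the lowest for Mef2c. Exons of Mef2d share 531 bases with the opposite-strand gene 1700113A16Rik, which had 3 counts over all libraries.

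**Figure D3:**
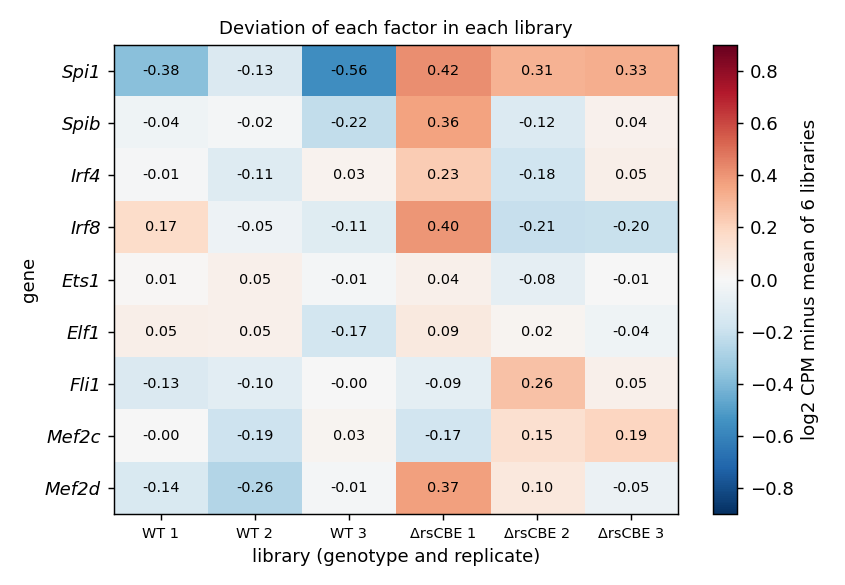
Deviation of each factor (rows) from its own mean log2 CPM over the 6 libraries (columns), in log2 units from blue (below) to red (above). Spi1 is negative in all 3 WT and positive in all 3 ΔrsCBE libraries. Spi1, Spib, Irf4, Irf8, Elf1 and Mef2d have their highest value in ΔrsCBE replicate 1.

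The libraries were not alike in how they carried these genes. ΔrsCBE replicate 1 held the highest value of 6 of the 9 members (Spi1, Spib, Irf4, Irf8, Elf1 and Mef2d) and the lowest of none. Of all tested genes, 18.2% were highest in that library. ΔrsCBE replicate 2 held the highest value of 1 member, Fli1, and the lowest of 3, Irf4, Irf8 and Ets1. This count was made after the values were seen. ΔrsCBE replicate 1 also had the highest summed level of early-response genes (6887 CPM).

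The remaining ETS genes were followed as a list. Of 21 genes, 10 were tested, 7 had 0 counts in all libraries, and 0 passed the test in either direction. The count was also 0 at an unadjusted p-value under 0.05 and with the DESeq2 Wald test. The median log2 fold change was -0.11, from -0.22 to 0.37, beside 0.01 for all tested genes. Without overlap of the groups, 0 tested genes of the list were higher (7.23% of all tested genes were). In the lower direction there were 2, Elk4 among them (8.92% of all tested genes). The most abundant were Elk4, a partner of serum response factor (516 ± 52.6 CPM in WT, 457 ± 16.3 in ΔrsCBE, log2 fold change -0.16), and Elf4 (275 ± 36.3 and 289 ± 51.0 CPM, 0.05). Elf2 (log2 fold change -0.19) and Gabpa, the DNA-binding subunit of GABP (-0.13), followed. Spic, the third member of the PU.1 subfamily, had 6 counts in all, too few for a test.

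Of the 7 other IRF genes, 5 were tested and 0 passed, with 0 at an unadjusted p-value under 0.05 and 0 with the DESeq2 Wald test. Their median log2 fold change was 0.18, from -0.21 to 0.35. Irf2, which often opposes Irf1, had 220.4 ± 18.1 CPM in WT and 250.1 ± 34.9 in ΔrsCBE. Irf1 had 192 ± 61.1 and 159 ± 24.6 CPM, and its ranges overlapped. Irf9 (log2 fold change -0.04) and Irf3 (0.33) transmit interferon and innate signals. Irf7 was below the count filter.

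The list of MEF2 relatives and regulators had 10 genes, of which 9 were tested and 0 passed. At an unadjusted p-value under 0.05 the count was 1, Hdac9 (10.2% of all tested genes had such a p-value). With the DESeq2 Wald test the count was 0. The median log2 fold change was 0.06. Hdac9, a class IIa histone deacetylase that binds and represses MEF2 proteins, had 104, 118 and 117 CPM in WT and 123, 181 and 154 CPM in the ΔrsCBE libraries. Its groups did not overlap, as in 7.23% of all tested genes in the higher direction. The log2 fold change was 0.44 ± 0.16 (SE) (adjusted p-value 0.278, edgeR). The related deacetylases Hdac7 and Hdac5 had log2 fold changes of 0.01 and 0.19, and the MEF2 inhibitor Cabin1 had 0.11. Mef2b was at 0 in all libraries.

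**Figure D4:**
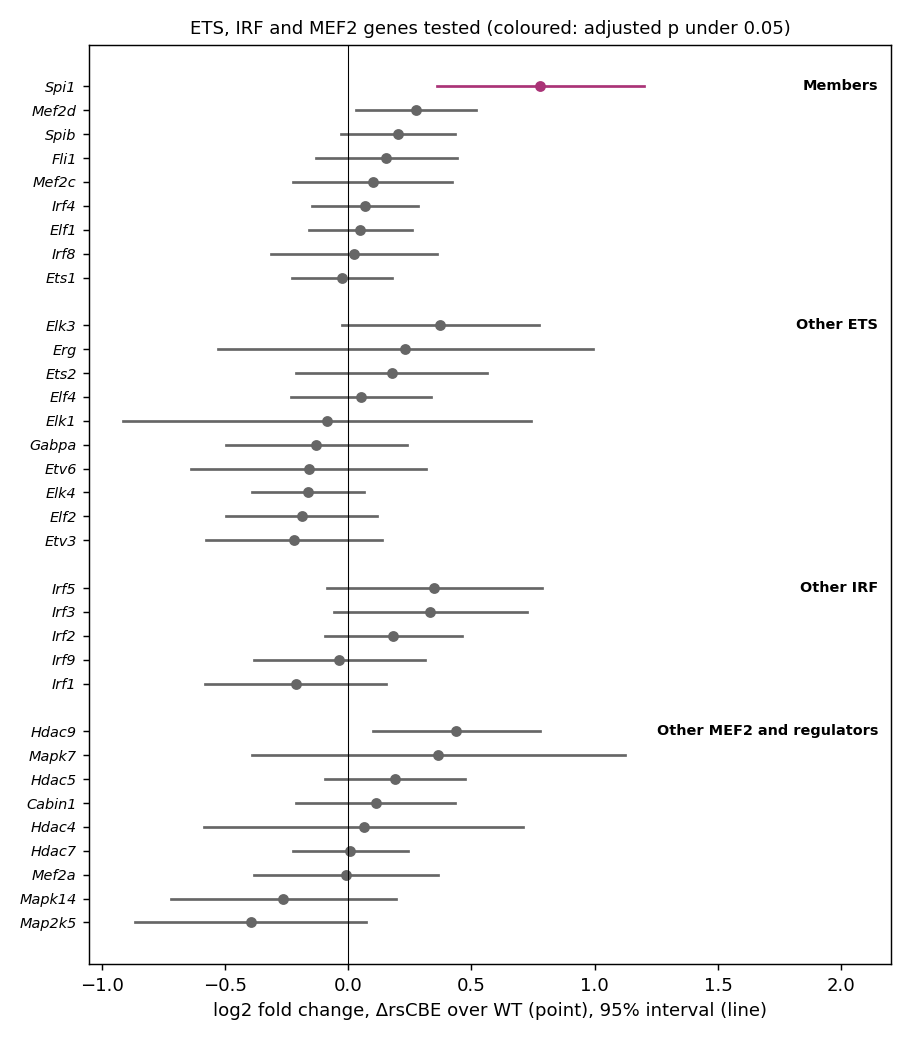
Log2 fold change of ΔrsCBE over WT (points, horizontal axis) with 95% intervals (lines) for the 9 members and the 24 other tested ETS, IRF and MEF2-related genes (rows, grouped by family). Spi1, at 0.78, is the 1 gene past the adjusted p-value threshold, and the intervals of Mef2d and Hdac9 also lie above 0 without an adjusted p-value under it.

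Cofactors and DNA-binding neighbours of these factors were examined next. Of 14 cofactor genes 13 were tested, and 1, Jund, passed. Jund, a subunit of AP-1 that with BATF and IRF4 binds AP-1-IRF composite sites, rose from 922 ± 65.2 to 1362 ± 332 CPM (log2 fold change 0.56, adjusted p-value 0.0359 by edgeR), with 1712 CPM in ΔrsCBE replicate 1 and 1052 and 1321 CPM in replicates 2 and 3. The call was lost on library size alone and without any 1 of WT replicates 1 to 3, ΔrsCBE replicate 1 or ΔrsCBE replicate 3. Jund is also on the early-response list. Bach2, a repressor of plasma cell fate, averaged 3242 ± 202 CPM in WT against 3377 ± 282 CPM in ΔrsCBE (log2 fold change 0.06), and the coactivators Crebbp and Ep300 had log2 fold changes of 0.08 and 0.03. Gabpb2 had 0.07. Batf, the partner of Jund at such sites, was below the count filter.

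Of 16 genes for other factors at light chain enhancers, 15 were tested and 0 passed, also with the DESeq2 Wald test. At an unadjusted p-value under 0.05 there were 2, both higher. Of all tested genes, 10.2% had such a p-value, 4.22% in the higher direction. The median log2 fold change was 0.09. Pax5, the B-lineage commitment factor, had 3225 ± 420.1 and 3469 ± 126 CPM (log2 fold change 0.11), and the E-protein gene Tcf3 had 2038 ± 91.9 and 1914 ± 63.7 CPM (-0.09). Ikzf3, which encodes Aiolos, had a log2 fold change of 0.14. Myb had 3199, 3227 and 3437 CPM in WT and 3423, 4367 and 4388 CPM in the ΔrsCBE libraries, so the male ΔrsCBE replicate 1 lay within the WT range. Its log2 fold change was 0.30 (adjusted p-value 0.123, edgeR). Without that library, where sex pattern and genotype coincide, it was 0.41 (adjusted p-value 0.00181, edgeR). The other gene with a low unadjusted p-value was Stat5a, which transmits IL-7 signals, at 18.3 ± 5.82 and 29.0 ± 1.24 CPM (adjusted p-value 0.426, edgeR).

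Genes described as responding to PU.1, Spi-B or IRF4 and IRF8 in B cells formed a list of 24, and 20 were tested. None passed with edgeR or with the DESeq2 Wald test. At an unadjusted p-value under 0.05 there were 3 higher (Btk, Blnk and Cd72) and 1 lower (Cd79a). They are named after their values were seen, and 10.2% of all tested genes had such a p-value, 4.22% in the higher direction. The median log2 fold change was 0.06, beside 0.01 for all tested genes. Btk, the kinase that relays receptor signals and a classical target of PU.1 and Spi-B, had 167, 145 and 147 CPM in WT and 182, 179 and 207 CPM in the ΔrsCBE libraries. The groups did not overlap, and the log2 fold change was 0.31 ± 0.14 (SE) (adjusted p-value 0.447, edgeR). Blnk, the adaptor downstream of the pre-B-cell receptor, had 264, 275 and 298 CPM in WT and 339, 312 and 352 CPM in ΔrsCBE, with a log2 fold change of 0.25 (adjusted p-value 0.467, edgeR). Cd72 had 626, 527 and 591 CPM and then 628, 736 and 807 CPM (log2 fold change 0.31, adjusted p-value 0.233 by edgeR). It passed without ΔrsCBE replicate 1 (0.40, adjusted p-value 0.0401 by edgeR), where sex pattern and genotype coincide. Cd79a, a signalling chain of the receptor, had a log2 fold change of -0.24 (adjusted p-value 0.483, edgeR). The most abundant genes of the list, Syk (4132 ± 70.9 and 4395 ± 204 CPM), Rag1, Bach2 and Ikzf3, had log2 fold changes of 0.09, 0.14, 0.06 and 0.14. In the list 4 tested genes were higher without overlap of the groups (7.23% of all tested genes were) and 1 was lower (8.92% of all tested genes were).

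Of the light chain loci that these factors act on, the table's Igk and Igl entries are given here, and neither is taken as the whole locus. The Igk entry had 1806, 1714 and 1656 CPM in WT and 2066, 1849 and 2056 CPM in ΔrsCBE. Its groups did not overlap, as in 7.23% of all tested genes in the higher direction. The log2 fold change was 0.21, with 95% limits of 0.02 and 0.39. It did not pass the test (edgeR adjusted p-value 0.400, unadjusted 0.0302). The Igl entry had a log2 fold change of -0.12 (adjusted p-value 0.839, edgeR), and Igkc and Iglc1 to Iglc3 were listed at 0.

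The tested genes whose log2 CPM followed Spi1 most closely over the 6 libraries were Unc93b1 (Pearson r 0.986), Ypel3 (0.982), AI467606 (0.982), Sqstm1 (0.980) and Dera (0.979). Unc93b1 carries nucleic acid-sensing Toll-like receptors to endosomes, and Sqstm1 is an autophagy adaptor. In all 5 the ΔrsCBE libraries were higher than the WT libraries without overlap, as in 7.23% of all tested genes. Choosing genes that follow Spi1, which separates the genotypes, largely fixes this. Unc93b1 had 665, 679 and 613 CPM in WT and 790.4, 750.3 and 767 CPM in ΔrsCBE. None of the 5 passed the test, with edgeR adjusted p-values from 0.0766 for Sqstm1 to 0.358 for Unc93b1. These r values are the highest among all tested genes over 6 points that fall into the genotypes, so they describe these libraries only.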

How the data were processed

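RNA-seq of sorted small pre-B cells from 3 WT and 3 ΔrsCBE libraries was analysed. Per the labels' protocols, ribosomal RNA was depleted and libraries were made with a stranded total RNA kit. The submitters' processing notes list Trim Galore 0.6.10, STAR 2.7.11, HTSeq, DESeq2 and the build mm10. The annotation and the strand setting of the counting are not given in the sources used here. The deposited table holds raw counts per gene symbol, 1 column per library. Columns were matched by library name and groups by title.

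Genes were kept by edgeR's filterByExpr (minimum count 10) and tested with edgeR 4.0.16 in R 4.3.3: TMM scaling (factors 0.978 to 1.02), robust glmQLFit with genotype alone, glmQLFTest, and Benjamini-Hochberg adjustment over all 7792 tested genes at a threshold of 0.05. The biological coefficient of variation was 0.117. Standard errors come from the F statistic, and 95% intervals from the same fit. CPM use TMM-scaled totals of the kept genes, and log2 CPM a prior count of 2. The labels name no molecular identifiers, so intervals on counts and floors reflect counting error alone. The fit was tested on simulated data. Coordinates, exon lengths, overlaps and coding sequences come from GENCODE M21 on GRCm38, the build that mm10 names. Male and female patterns were read from Xist and from Uty, Kdm5d, Ddx3y and Eif2s3y on the Y chromosome.

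The members and gene lists were chosen with earlier results of these data known. The text names all members, list genes past the threshold, up to 4 more of the most abundant genes of each list outside the cell-cycle and early-response lists, and the 5 genes most correlated with Spi1. Cell-cycle and early-response genes other than Jund are given as list totals and counts. Btk, Blnk, Cd72, Cd79a and Stat5a fall outside this rule and were named after their values were seen, for their unadjusted p-values, and a few untested list genes are named for their counts. Libraries of the same genotype differed beyond sampling noise, with chi-square values of 1.78 to 3.18 per degree of freedom. Alternatives covered scaling, test (DESeq2 1.42.0), filter, robust estimation, threshold, each library left out, replicate block, sex covariate and male-pattern libraries.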

Additional observations from a re-analysis of the deposited data

How the results depend on the processing

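Replicate numbers are shared between the genotypes, but nothing in the labels pairs the libraries, and same-numbered libraries did not deviate together (correlations 0.01, 0.02 and 0.01 across genes). With the replicate block the Spi1 log2 fold change was 0.76 (edgeR adjusted p-value 0.0843) and 0 members passed, and all other counts of the lists with the block stayed within 1.5 times. For Spi1 the call was also lost with the DESeq2 Wald test (0.77), without robust estimation (0.78, edgeR adjusted p-value 0.0564) and with the sex covariate (0.85). The number of members that rose was then 0, 0 and 0. With male-pattern libraries alone, where ΔrsCBE has 1 library, the log2 fold change was 0.85 for Spi1, 0.46 for Spib and 0.49 for Mef2d. With 1 library left out, Spi1 ranged from 0.64 to 0.88 and the number of members that rose from 0 to 1. The sign reversed with the sex covariate and with male-pattern libraries alone for Ets1 (0.032 and 0.034), Fli1 (-0.021 and -0.020) and Mef2c (-0.15 and -0.15). With 1 library left out, ranges crossed 0 for Elf1 (-0.022 to 0.089), Ets1 (-0.055 to 0.0090), Irf4 (-0.037 to 0.17) and Irf8 (-0.21 to 0.14). Cell-cycle genes past the threshold in the lower direction numbered 7 with the sex covariate and 8 to 14 with 1 library left out. Early-response genes past the threshold in the higher direction numbered 2 to 8 with 1 library left out. The enhancer partner count became 1 (Myb) under the CPM filter, and the cofactor count became 0 on library size alone. With 1 library left out, the counts ran from 0 to 1 for partners, for cofactors and for responsive genes. Over all tested genes, the 16 that were higher became 9 with the DESeq2 Wald test, 25 without a count filter, 31 under the CPM filter and 30 at a threshold of 0.1. The 116 lower became 72 with the sex covariate. No scaling moved the median of all genes by over 0.1. Where a call or sign changed, the cause was not tested. Spi1, with 23 to 75 counts per library, is the member whose precision depth limits most.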
